A study of Mus musculus with 17 samples.

Results

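The genes described here are 37 genes of cholesterol and fatty acid synthesis in mouse embryonic stem cells, out of 47729 genes counted. They were chosen by symbol and matched to Ensembl identifiers through GENCODE M21, and all 37 were found. By role they were 18 enzymes of sterol synthesis, 5 genes of the control of SREBP (sterol regulatory element binding protein), 5 genes of sterol traffic and efflux, and 9 enzymes of fatty acid synthesis. All 37 passed the filter on low counts in both sets of libraries, so no member is missing from any count below.

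Polyadenylated RNA was sequenced from the mouse embryonic stem cell lines R1 and CGR8, grown in serum-free N2B27 medium with the cytokine LIF in every group. The L2i group had 3 uM CHIR99021, a GSK3 inhibitor, and 0.1 uM PD325901, a MEK inhibitor. The LIM group had 0.1 uM PD325901 and 2 uM IWP2, which blocks the secretion of Wnt ligands, and its cells had been in that medium for 4 (R1) and 6 (CGR8) passages. The LFAI groups had 12 ng/ml FGF2, 20 ng/ml Activin A and 2 uM IWP2, for 35 h or for 4 days. R1 and CGR8 gave 1 library each in all 4 groups (n = 2), so every p measures the spread between the lines of a group, and nothing in the labels gives more than 1 culture of a line. A separate time course of R1 followed cells from L2i (day 0) into LIM or LFAI on days 1 to 4, with 1 library a point. It differed from the set with both lines in plate coating (gelatin with fetal calf serum instead of gelatin with a basement membrane extract) and in sequencing protocol, so levels were compared only within a set. Time spent in 2i beforehand differed as well: L2i cells had 10 (R1) and 8 (CGR8) passages, LIM cells 5 in both lines, and LFAI cells 9 and 7 before the 35 h and 3 and 9 before the 4 day treatment. Total passage number (R1, CGR8) was 32 and 31 in L2i, 30 and 34 in LIM, 31 and 30 at 35 h, and 26 and 33 at 4 days. In the time course it was 32 throughout, with 5 passages in 2i on day 0, 4 on days 1 to 3 and 3 on day 4.

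Cells make cholesterol from acetyl-CoA through the mevalonate pathway, which leads to squalene, lanosterol and then, by a chain of demethylations and rearrangements, cholesterol. The transcription factor SREBP2, the product of Srebf2, mainly drives these enzymes and the short form of SREBP1, the product of Srebf1, mainly drives fatty acid synthesis. Both are held in the endoplasmic reticulum by Scap and the Insig proteins when sterols are plentiful, whereas a surplus of sterols acts through the LXR receptors to raise the exporters Abca1 and Abcg1 and the ubiquitin ligase Mylip.

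Gene counts per library ran from 15135012 to 22593805 in the set with both lines, of which the L2i library of R1 was the deepest and no other passed 16304195, and from 12889029 to 13667302 in the time course. The pluripotency gene Pou5f1 stood at 1189 to 1924 CPM (counts of a gene scaled to a common library size) in the 8 libraries of that set. The 6 pluripotency markers were Pou5f1, Sox2, Nanog, Zfp42, Esrrb and Tfcp2l1. Of these, Nanog, Esrrb and Tfcp2l1 were called lower than L2i by edgeR in LIM and at 35 h of LFAI, and 5 of the 6 at 4 days. The shares of all tested genes called lower were 7.81%, 7.16% and 23.3%. All 4 markers of the post-implantation epiblast were called higher than L2i in LIM and at both times in LFAI, where 11.3%, 7.35% and 21.5% of all tested genes were. Primitive endoderm markers (4) summed to 1.53 and 1.79 CPM in L2i, 0.978 and 1.17 CPM at 35 h, 4.99 and 8.07 CPM in LIM and 4.18 and 6.10 CPM at 4 days, with Gata6 at most 0.261 CPM. Among them Dab2 was called higher than L2i in LIM (log2 2.41, edgeR adjusted p = 0.02) and at 4 days (log2 2.18, edgeR adjusted p = 0.013). Both calls were lost without the L2i library of R1, that in LIM also without the L2i library of CGR8 or the LIM library of R1, and that at 4 days without the 4 day library of R1. The 5 fibroblast markers summed to 3.78 to 3.95 CPM in L2i, 9.58 to 11.0 CPM at 35 h, 19.0 to 29.2 CPM in LIM and 33.8 to 41.2 CPM at 4 days. At 4 days this was mostly Fbn1 (30.0 and 18.7 CPM) and Thy1 (7.73 and 11.4 CPM), and Col1a1 was at most 2.56 CPM in any library. Of the 4 tested by edgeR, 3 were called higher than L2i in LIM and 3 at 4 days. The shares of all tested genes called higher were 11.3% and 21.5%. The 4 trophoblast markers summed to 6.57 to 8.91 CPM in L2i, 3.31 to 7.10 CPM in LFAI at 35 h, 28.7 to 40.1 CPM in LIM and 68.1 to 156 CPM in LFAI at 4 days. In L2i this was mostly Cdx2 (6.89 and 5.17 CPM), and in LIM and at 4 days mostly Krt18 (26.8 to 155.4 CPM), with Cdx2 at 0 in all 4 LFAI libraries and Elf5 at most 0.356 CPM. Hand1 was at 0 in both L2i libraries and at 1.94 and 1.48 CPM in LIM, where it was called higher (edgeR adjusted p = 0.0069). The part of these marker changes in the results below was not tested, and in bulk RNA fewer cells of a type and less RNA per cell cannot be told apart.

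Promoter sequences are shown for 5 members whose levels the results turn on. RefSeq (build GRCm38.p6) gave the 250 bases before 36 transcription starts of 28 members, and the other 9 (Fads1, Scd1, Scd2, Fdps, Fdft1, Sqle, Abcg1, Stard4 and Npc1) are named only. Hmgcs1 (chr13:119690101-119690350, plus strand) makes HMG-CoA and its window alone among the members held TCACNCCAC, the letters of a sterol regulatory element. Lss (chr10:76531355-76531604, plus strand) closes the sterol ring, and had the smallest adjusted p of the members in LIM. Ebp (chrX:8193513-8193762, minus strand) is the sterol isomerase that moved against the other sterol enzymes. Fasn (chr11:120824548-120824797, minus strand) is the fatty acid synthase, and Abca1 (chr4:53159896-53160145, minus strand) exports sterol and fell the most. Each sequence runs 5′ to 3′ toward the start, and capitals mark CCAAT (the box bound by NF-Y, a usual partner of SREBP; ATTGG is the same box on the other strand), TCACNCCAC or CACGTG (the E-box).
Hmgcs1: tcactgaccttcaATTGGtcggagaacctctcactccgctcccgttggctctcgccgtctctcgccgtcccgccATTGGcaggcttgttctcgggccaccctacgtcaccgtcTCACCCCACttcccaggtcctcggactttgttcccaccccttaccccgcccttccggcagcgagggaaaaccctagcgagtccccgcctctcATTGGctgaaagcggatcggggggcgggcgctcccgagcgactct
Lss: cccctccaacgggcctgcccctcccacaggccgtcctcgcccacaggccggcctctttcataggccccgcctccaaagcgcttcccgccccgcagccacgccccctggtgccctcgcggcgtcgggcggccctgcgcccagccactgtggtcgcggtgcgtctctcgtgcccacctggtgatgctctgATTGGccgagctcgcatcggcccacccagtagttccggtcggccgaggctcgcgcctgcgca
Ebp: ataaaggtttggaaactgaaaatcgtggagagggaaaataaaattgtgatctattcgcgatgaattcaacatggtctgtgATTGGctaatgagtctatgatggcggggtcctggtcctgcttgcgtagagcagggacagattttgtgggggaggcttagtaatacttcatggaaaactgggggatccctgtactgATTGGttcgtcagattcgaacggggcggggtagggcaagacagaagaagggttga
Fasn: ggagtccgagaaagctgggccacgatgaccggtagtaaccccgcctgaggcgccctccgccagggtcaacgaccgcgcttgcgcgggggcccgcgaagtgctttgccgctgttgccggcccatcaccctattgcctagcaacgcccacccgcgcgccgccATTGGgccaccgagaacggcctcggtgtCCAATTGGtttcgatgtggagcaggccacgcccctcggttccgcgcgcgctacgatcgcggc
Abca1: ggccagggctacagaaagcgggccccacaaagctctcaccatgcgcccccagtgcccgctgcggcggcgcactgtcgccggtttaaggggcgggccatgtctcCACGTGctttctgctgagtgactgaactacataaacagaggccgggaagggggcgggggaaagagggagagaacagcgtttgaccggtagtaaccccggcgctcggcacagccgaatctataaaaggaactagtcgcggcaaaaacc

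The CCAAT box, searched on both strands and counted for a gene when any of its starts held it, was found in 14 of 15 sterol synthesis genes (93.3%) with a sequence, in 4 of 5 control genes and in 2 of 6 fatty acid genes (33.3%). Among all 11259 genes tested in the set with both lines that had an entry, 40.8% held it, and 33.8% of all 32851 start windows did. The sterol gene without it was Acat2. TCACNCCAC was found in 1.3% of the tested genes, CACGTG in 9.8% and in 6 of the 28 members, and GGGCGG, the core of the Sp1 box, in 63.4% and in 24 of the 28. In Fasn a CCAAT and an ATTGG overlap in the run CCAATTGG. All 9 sterol genes with a sequence that rose in LIM held CCAAT, and 5 of the 6 that did not rise held it too, Ebp among them.

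**Figure D1:**
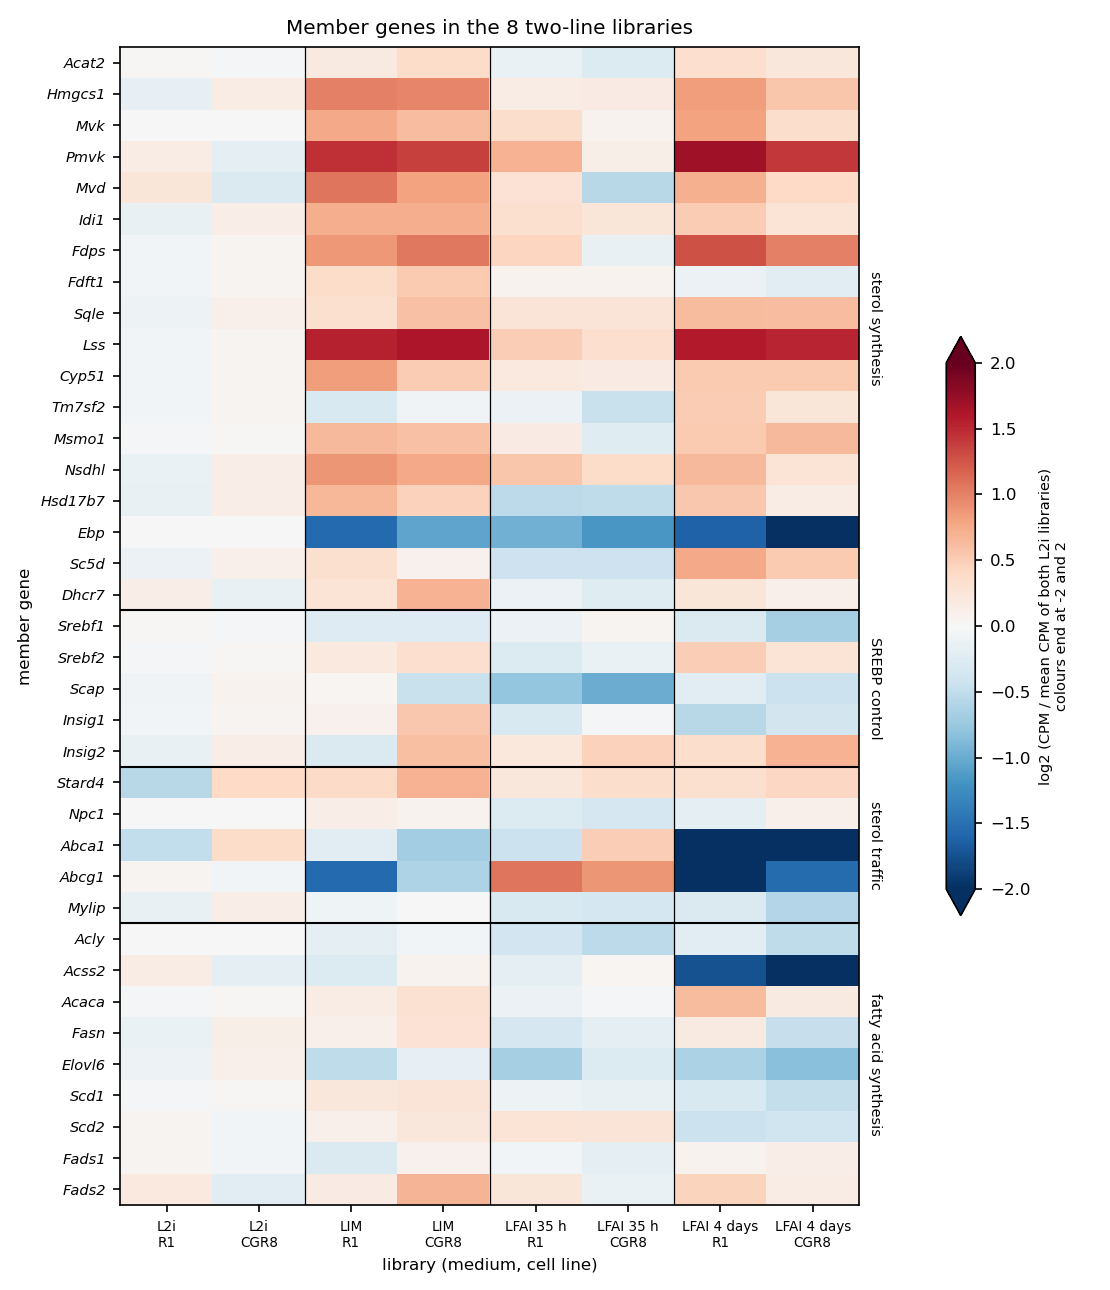
Each cell gives log2 of a member's CPM over the mean CPM of both L2i libraries, by library (columns, grouped by medium, with cell lines R1 and CGR8) and by member (rows, in 4 roles), with colours that end at -2 and 2. Sterol synthesis genes were mostly high in LIM and LFAI at 4 days and near L2i at 35 h, while Ebp was low in all 6 of those libraries and Abca1 and Acss2 were low at 4 days.

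Sterol synthesis genes rose in LIM. Against L2i, 12 of the 18 were called higher at an edgeR adjusted p under 0.05 and 1 (Ebp) lower, with a median log2 difference of 0.65. Over all 15525 genes tested, 11.3% were called higher and 7.81% lower, with a median of 0.01, so the share of sterol genes called higher was far above the background. Of the 9 fatty acid synthesis genes 0 were called by edgeR, by edgeR with a block or by DESeq2, and 0 had an unadjusted p under 0.05, with a median of 0.17. Of the 5 control and the 5 traffic genes 0 were called by edgeR, with 0 and 1 at an unadjusted p under 0.05. The 1 was Abcg1, an exporter of sterol, at 32.1 and 29.9 CPM in L2i and 10.6 and 20.2 CPM in LIM (log2 -1.01 ± 0.34, edgeR adjusted p = 0.07). It was called lower by DESeq2 and by edgeR with the cell line as a block (adjusted p = 0.03). In LIM in the R1 time course it changed from day 0 by 0.32, 0.39, 0.15 and -0.23 log2 units on days 1 to 4.

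Genes that rose ran from the mevalonate steps through squalene and lanosterol to some of the post-lanosterol steps. Ebp, Sc5d and Dhcr7, at the end of the pathway, were not called higher by edgeR. For Dhcr7 both LIM libraries lay above both of L2i (edgeR adjusted p = 0.069), and DESeq2 called it higher. Hmgcs1, the first of the mevalonate enzymes on the list, was at 350.3 CPM (R1) and 437.1 CPM (CGR8) in L2i and at 793 and 774.7 CPM in LIM, a log2 difference of 0.99 ± 0.15 (SE, edgeR adjusted p = 0.0028). Pmvk, the phosphomevalonate kinase, went from 41.1 and 32.8 CPM to 102 and 94.9 CPM, a 2.67-fold rise (edgeR adjusted p = 0.0028). Lss was at 79.6 and 85.9 CPM in L2i and at 239.7 and 253 CPM in LIM, a 2.98-fold rise with the smallest adjusted p of the 37 (edgeR adjusted p = 0.00021). For these 3 genes both LIM libraries lay above both L2i libraries. The log2 changes in R1 and CGR8 were 1.18 and 0.83 for Hmgcs1, 1.31 and 1.53 for Pmvk, and 1.59 and 1.56 for Lss. The other 9 that rose were the mevalonate and isoprenoid enzymes Mvk, Mvd, Idi1 and Fdps, the squalene enzymes Fdft1 and Sqle, and the post-lanosterol enzymes Cyp51, Msmo1 and Nsdhl. Their log2 differences ran from 0.44 (Fdft1) to 0.97 (Fdps). Not called by edgeR were Acat2 (0.27), Tm7sf2 (-0.18), Hsd17b7 (0.57), Sc5d (0.21) and Dhcr7 (0.51).

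Ebp was the exception. It was at 58.2 and 57.1 CPM in L2i and at 19.6 and 27.7 CPM in LIM, 2.44-fold lower (edgeR adjusted p = 0.0070). The gene lies at chrX:8185329-8193512 on the minus strand in GRCm38. Hmgcs1, Pmvk, Lss and Ebp were called under each of the 13 alternatives run, and the other 9 lost the call in at least 1. Without the L2i library of R1 only 3 sterol genes were called higher, without that of CGR8 6, and without the LIM library of R1 or CGR8 7 or 6.

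None of the regulators' transcripts passed the threshold in LIM. Srebf2 was at 364.5 and 373 CPM in L2i and 421 and 464 CPM in LIM, a log2 difference of 0.26 ± 0.13 (edgeR adjusted p = 0.19). Srebf1 was at 174 and 169 CPM against 143 and 143 CPM, a log2 difference of -0.26 ± 0.15 (edgeR adjusted p = 0.26). Both LIM libraries lay above both of L2i for Srebf2 and below both for Srebf1. Insig1, itself a target of SREBP that holds Scap back, was at 181.5 and 196 CPM in L2i and 199.6 and 274 CPM in LIM (log2 0.33 ± 0.17, edgeR adjusted p = 0.22).

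Fatty acid synthesis genes were abundant and moved little in LIM. Per kilobase of exon, the highest members in L2i were Scd2, a stearoyl-CoA desaturase (281 CPM per kb), Acly, which makes cytosolic acetyl-CoA (212 CPM per kb), and Fasn (101 CPM per kb), while Hmgcs1, the highest sterol enzyme, was at 85.7 CPM per kb. Fasn was at 1004 and 1200 CPM in L2i and at 1180 and 1340 CPM in LIM (log2 0.19 ± 0.21, edgeR adjusted p = 0.55). The largest differences among the 9 were of Fads2, a fatty acid desaturase (0.45 ± 0.22), and Elovl6, an elongase (-0.32 ± 0.18), with edgeR adjusted p = 0.20 and 0.25.

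**Figure D2:**
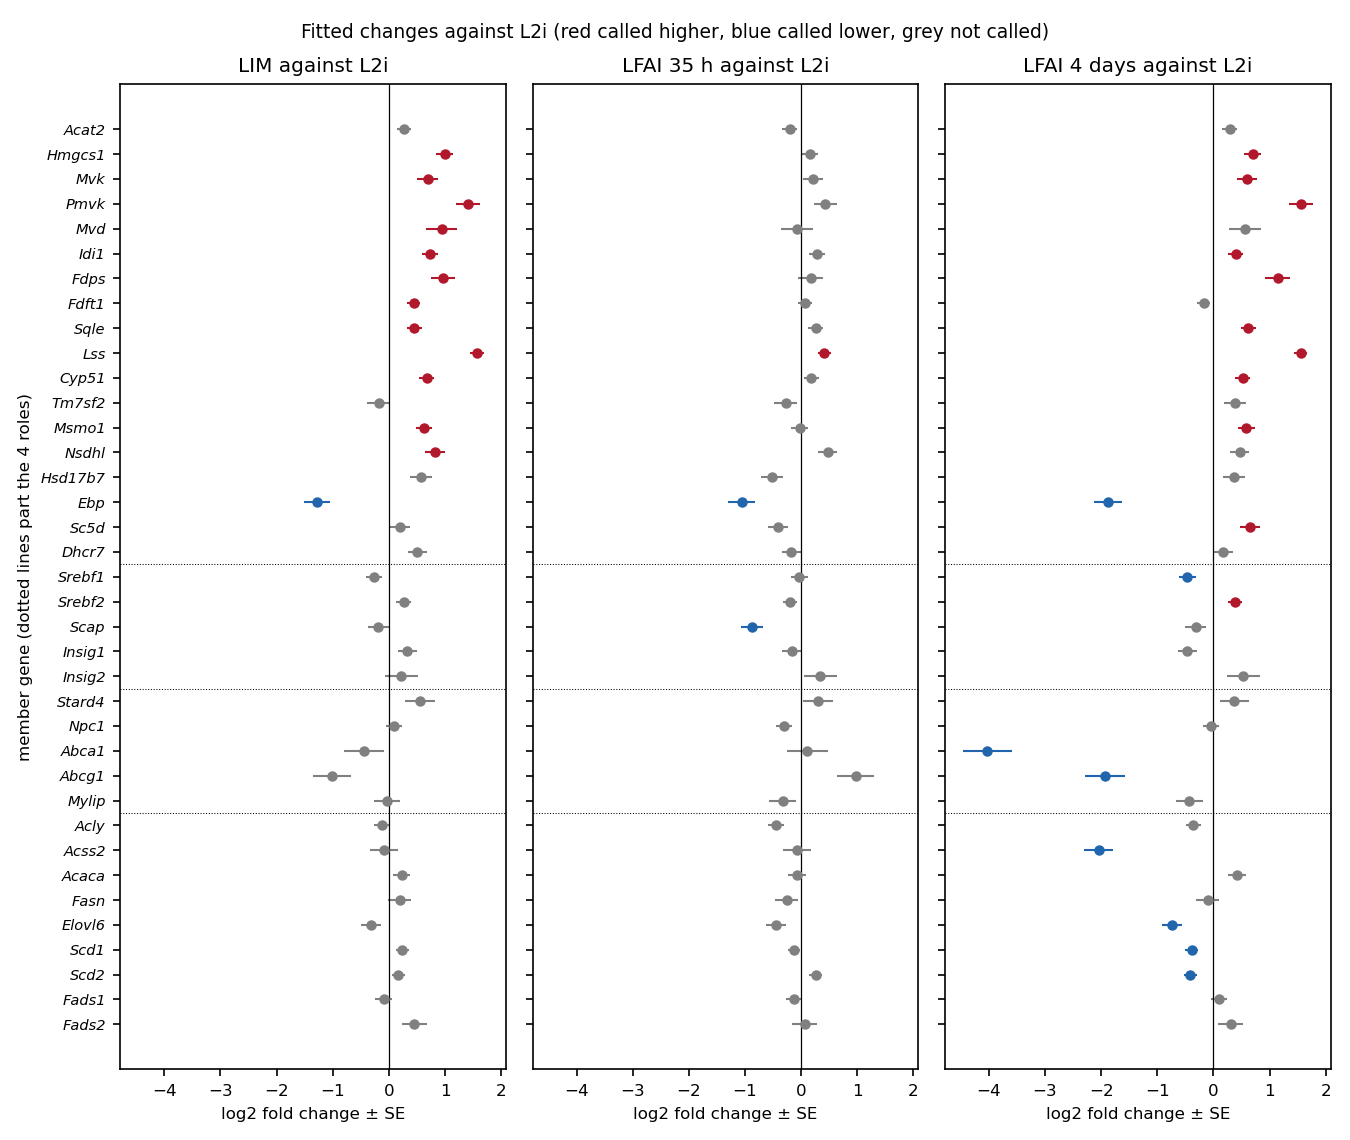
Log2 fold change against L2i with its standard error for each member (vertical axis, by role) in LIM, LFAI at 35 h and LFAI at 4 days, from edgeR on 2 libraries a group. Red and blue points mark genes called higher and lower: 12 and 1 in LIM, 1 and 2 at 35 h, and 11 and 8 at 4 days.

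After 35 h in LFAI the sterol genes stood near their L2i levels. Of the 18, 1 (Lss) was called higher than L2i and 1 (Ebp) lower, with a median log2 difference of 0.11, where 7.35% and 7.16% of all tested genes were called. Lss was at 117 and 104 CPM (log2 0.42 ± 0.12, edgeR adjusted p = 0.049), and lost the call under 11 of 13 alternatives, with an adjusted p of up to 0.27 without the 35 h library of R1. Ebp was at 29.7 and 25.7 CPM, less than its level in either L2i library (log2 -1.06 ± 0.24, edgeR adjusted p = 0.019). Scap, which escorts SREBP to the Golgi, fell from 56.9 and 62.7 CPM to 34.8 and 30.2 CPM (log2 -0.88 ± 0.19, edgeR adjusted p = 0.018). None of the 9 fatty acid genes was called by edgeR (2 had an unadjusted p under 0.05, and DESeq2 called 1, Acly, lower). The calls of Ebp and Scap were lost when any of the 4 libraries compared was left out, with an adjusted p of at most 0.096 for Ebp and 0.097 for Scap. Abcg1, the partner exporter of Abca1, was at 32.1 and 29.9 CPM in L2i and 65.1 and 57 CPM at 35 h (log2 0.98 ± 0.33). Its edgeR adjusted p was 0.085 without a block and 0.044 with the cell line as a block, and both 35 h libraries lay above both of L2i.

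Set against LIM, the 35 h cells were lower in sterol genes: 6 of 18 were called lower (Hmgcs1, Pmvk, Lss, Msmo1, Hsd17b7 and Dhcr7) and 0 higher by edgeR or DESeq2, with a median of -0.56, where 4.46% of all tested genes were called lower and 1.92% higher. Lss was 2.23-fold lower (edgeR adjusted p = 0.0024) and kept the call under all 13 alternatives. Hsd17b7, a late demethylation enzyme, was at 36.5 and 31.7 CPM in LIM and 16 and 16.2 CPM at 35 h (log2 -1.08 ± 0.20, edgeR adjusted p = 0.019). Hsd17b7 was thus below both L2i libraries (20.8 and 25.3 CPM) at 35 h, although not called against L2i (edgeR adjusted p = 0.12). Abcg1 was the 1 member called higher, at 10.6 and 20.2 CPM in LIM (log2 1.99 ± 0.34, edgeR adjusted p = 0.015). Of the fatty acid genes 0 were called by edgeR or DESeq2 and 2 had an unadjusted p under 0.05, with a median of -0.30. Without the 35 h library of CGR8 or the LIM library of R1 the count of sterol genes called lower was 1, and with the cell line as a block it was 8, as Mvd and Fdps were added, where 9.59% of all genes were called in either direction. Both media and time since L2i differ between these groups.

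Sterol genes stood higher at 4 days in LFAI. Against L2i, 10 of 18 were called higher and 1 (Ebp) lower, with a median log2 difference of 0.54, where 21.5% of all tested genes were called higher and 23.3% lower. These and the LIM comparison share the L2i libraries. Lss was at 248 and 237.5 CPM, 2.93-fold above L2i (edgeR adjusted p = 3e-05). Pmvk was at 119.8 and 98.6 CPM, 2.95-fold above L2i (edgeR adjusted p = 0.00051), and Fdps, which makes farnesyl pyrophosphate, at 39.2 and 32.8 CPM against 15.7 and 17 CPM (2.21-fold, edgeR adjusted p = 0.0032). Both 4 day libraries of each gene lay above both of L2i. Hmgcs1 (0.70), Mvk (0.60), Idi1 (0.40), Sqle (0.62), Cyp51 (0.52), Msmo1 (0.59) and Sc5d (0.65) were the others called higher, as log2 differences. Fdft1, squalene synthase, was not among them, at 198 and 183 CPM, below both L2i (207 and 223 CPM) and LIM (277 and 309 CPM). Against LIM it fell by 0.62 on the log2 scale (edgeR adjusted p = 0.0058). In the R1 time course it was instead above day 0 (230.2 CPM) on day 4 of LFAI, at 271.4 CPM. That was below the 328.6 CPM of day 4 in LIM.

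Ebp went further down, to 18.7 and 12.6 CPM, 3.68-fold below L2i (edgeR adjusted p = 0.00037). Hmgcs1, Pmvk, Fdps, Lss and Ebp kept their calls under all 14 alternatives, and with the cell line as a block Mvd (adjusted p = 0.015) and Nsdhl (0.047) were called higher too. Without the L2i library of R1 the count of sterol genes called higher was 4, and without any other single library it was 7 to 9.

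The genes that code for SREBP moved apart at 4 days. Srebf2 was at 519 and 447 CPM (log2 0.39 ± 0.13 against L2i, edgeR adjusted p = 0.034) and Srebf1 at 140.9 and 108 CPM (log2 -0.46 ± 0.15, edgeR adjusted p = 0.032). Every 4 day library was above both L2i libraries for Srebf2 and below both for Srebf1. Each call was lost without any 1 of several libraries: for Srebf2 without either L2i library, the 4 day library of R1 or the 35 h library of R1 (adjusted p up to 0.16), for Srebf1 without either L2i library or the 4 day library of CGR8 (up to 0.19). Insig1 was at 128 and 146 CPM, below LIM by 0.79 ± 0.17 on the log2 scale (edgeR adjusted p = 0.010), and with the cell line as a block it was below L2i as well (edgeR adjusted p = 0.015), whereas in the time course of R1 it stood above day 0 on all 4 days of LFAI. The call against LIM was lost without the 4 day library of R1 (adjusted p = 0.066) or the LIM library of CGR8.

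The exporters fell at 4 days. Abca1 was at 25.6 and 46.2 CPM in L2i, 30.5 and 22.2 CPM in LIM, 26.7 and 50.6 CPM at 35 h, and 1.82 and 2.55 CPM at 4 days. The fall against L2i was 16.4-fold (log2 -4.03 ± 0.44, edgeR adjusted p = 0.00016), and no 4 day library came near the lowest of the other 6. Abcg1 was at 5.66 and 10.6 CPM at 4 days, 3.81-fold below L2i (edgeR adjusted p = 0.0025) and 7.49-fold below its 35 h level (edgeR adjusted p = 0.00048). In LIM it was at 10.6 and 20.2 CPM, so the order from high to low was 35 h, L2i, LIM, 4 days, and the LIM and 4 day libraries overlapped at 10.6 CPM. Against LIM its edgeR adjusted p at 4 days was 0.08, and 0.047 with the cell line as a block. Mylip, the third LXR target on the list, stayed between 7.64 and 12.5 CPM in all 8 libraries and was called in 0 of the 6 edgeR comparisons. Stard4 (59 to 140.2 CPM), which carries sterol between membranes, and Npc1 (53.8 to 74.1 CPM), which lets it leave lysosomes, were not called either.

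Of the fatty acid synthesis genes 4 of 9 fell by 4 days and 0 rose by edgeR, with a median log2 difference of -0.36. DESeq2 called 5 lower and 1 (Acaca) higher. Acss2, which makes acetyl-CoA from acetate, was at 36 and 28.6 CPM in L2i and at 9.62 and 6.01 CPM at 4 days, 4.13-fold lower (edgeR adjusted p = 0.00037). Elovl6 fell from 303 and 348 CPM to 210 and 182 CPM (log2 -0.73 ± 0.18, edgeR adjusted p = 0.010). The desaturases Scd1 (409 and 419 to 334.5 and 298 CPM, log2 -0.39 ± 0.11) and Scd2 (1586 and 1480 to 1137 and 1163 CPM, log2 -0.42 ± 0.12) fell less, with edgeR adjusted p = 0.022 and 0.018. For all 4 genes the 4 day libraries lay below every L2i library, which describes the values behind the calls and adds no test. Acaca, acetyl-CoA carboxylase, was at 308.9 and 224.6 CPM against 196.8 and 201.3 CPM in L2i (edgeR adjusted p = 0.057), so the enzyme that feeds Fasn stood above both L2i libraries while these 4 stood below. The 23.3% of all tested genes that fell is the background for these 4 of 9. Without the L2i library of R1 or CGR8 or the 4 day library of CGR8 the count was 2.

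Against LIM 1 sterol gene and 3 fatty acid genes were called at 4 days, all of them lower. Of the sterol genes 0 were called higher by edgeR or DESeq2 (2 had an unadjusted p under 0.05) and 1 (Fdft1) was called lower (3 had an unadjusted p under 0.05), with a median of -0.13, where 12.3% of all tested genes were called higher and 17.2% lower. Of the fatty acid genes 3 were called lower: Acss2 (log2 -1.96 ± 0.26), Scd1 (-0.63 ± 0.11) and Scd2 (-0.58 ± 0.12), each also called in every alternative. Fasn and Acaca were not called by edgeR in either comparison, although DESeq2 called Acaca higher than in L2i. The lines disagreed on Fasn. Fasn at 4 days was at 1252 CPM in R1, above L2i, and at 804 CPM in CGR8, below it.

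From 35 h to 4 days 9 of 18 sterol genes were called higher and 1 (Ebp) lower, where 17.7% and 19.0% of all tested genes were. Lss rose 2.20-fold, Pmvk 2.19-fold and Sc5d, a desaturase late in the pathway, 2.08-fold (edgeR adjusted p = 0.00023, 0.0037 and 0.0024). Srebf2 rose by 0.59 ± 0.13 and Scap by 0.56 ± 0.19 on the log2 scale (edgeR adjusted p = 0.0077 and 0.048). Srebf1 fell by 0.43 on the log2 scale (edgeR adjusted p = 0.049). Acaca was the 1 fatty acid gene called higher (log2 0.49 ± 0.16, edgeR adjusted p = 0.038), and Acss2 and Scd2 were called lower. Of these 18 calls 7 held under all alternatives (Pmvk, Lss, Sc5d, Abca1, Abcg1, Acss2 and Scd2). Without the 35 h library of CGR8 the count of sterol genes called higher was 3 and without the 4 day library of R1 it was 4. The calls of Scap and Acaca were lost under 6 of the 8 single-library omissions and that of Srebf1 under 7, while that of Srebf2 was lost without the 35 h library of R1.

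**Figure D3:**
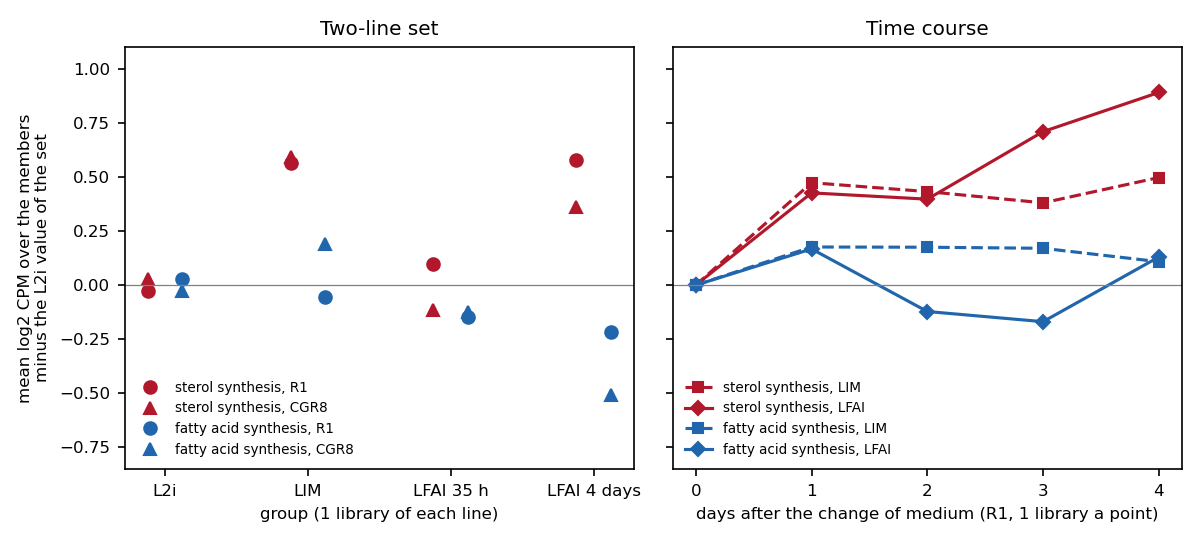
Mean log2 CPM over the 18 sterol and the 9 fatty acid synthesis genes in each library, minus the L2i value of the same set, for the set with both lines (left, points by line) and the time course of R1 (right, lines by medium). In the set with both lines, sterol means were 0.56 to 0.59 in LIM and 0.36 to 0.58 at 4 days in LFAI. Fatty acid means there were -0.51 to -0.22 at 4 days. On day 4 of LFAI in the time course the sterol mean was 0.89 and the fatty acid mean 0.13.

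Means over the genes of an arm were taken in each library. The sterol mean was 0.56 (R1) and 0.59 (CGR8) log2 units above the L2i mean in LIM, 0.10 and -0.12 at 35 h, and 0.58 and 0.36 at 4 days. The fatty acid mean was -0.05 and 0.19 in LIM, -0.15 and -0.12 at 35 h, and -0.22 and -0.51 at 4 days. Sterol means of LIM and 4 days did not overlap those of L2i or 35 h, whereas fatty acid means of LIM lay on both sides of L2i. The order of LIM and 4 days in the sterol means, and of L2i and LIM in the fatty acid means, differed between the lines. In the time course of R1 the fatty acid mean did not stay below day 0 in LFAI. It was 0.17, -0.12, -0.17 and 0.13 on days 1 to 4, while the sterol mean was 0.89 on day 4. These means describe the arms, and no test was made of them.

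In the time course the sterol genes already stood higher at day 1. On that day the median log2 change of the 18 genes was 0.52 in LIM and 0.50 in LFAI, with 0 of them past 2-fold in either direction, where of all 15682 genes that passed the filter 5.34% and 4.65% were 2-fold higher and 4.47% and 3.88% 2-fold lower. On the following days it was 0.52, 0.53 and 0.65 in LIM and 0.48, 0.86 and 1.03 in LFAI. In LIM 0 of the 18 passed 2-fold on days 2 to 4 either, where 6.73%, 7.28% and 8.17% of all genes were 2-fold higher and 5.04%, 7.15% and 7.22% lower. In LFAI 0, 6 and 9 were 2-fold higher on days 2 to 4, where 10.6%, 14.4% and 16.3% of all genes were, and 1 (Ebp) was 2-fold lower on each of those days, where 10.8%, 13.0% and 13.4% were. Counted against the 95% counting interval of each value, 15 of 18 were higher on all 4 days in LIM and 14 of 18 in LFAI, where 13.4% and 7.45% of all genes were. The interval covers counting error only, and with 1 library a point there is no replicate check. Both courses share the day 0 library, so a value that is odd there would shift all 8 later points alike.

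Ebp was lower on all 4 days in both media. It was at 59.8 CPM on day 0, at 38.7, 33.1, 30.5 and 35.1 CPM on days 1 to 4 in LIM, and at 35.4, 29.8, 15.8 and 17.2 CPM in LFAI. Lss was at 128 CPM on day 0, 187, 188, 187.5 and 211 CPM in LIM, and 185, 227, 351 and 412 CPM in LFAI. Hmgcs1 was at 462 CPM on day 0, 716, 801.5, 719 and 806 CPM in LIM, and 727, 717, 983.5 and 1114 CPM in LFAI. Both media gave like levels of these genes on day 1. On days 3 and 4 Lss and Hmgcs1 were higher in LFAI than in LIM, and Ebp was lower. Over the 18 genes, the median difference of LFAI from LIM was -0.04, -0.04, 0.36 and 0.46 log2 units on days 1 to 4. Hsd17b7 dipped on day 2 of LFAI, to 24.1 CPM between 37.5 CPM on day 1 and 41.1 CPM on day 3.

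**Figure D4:**
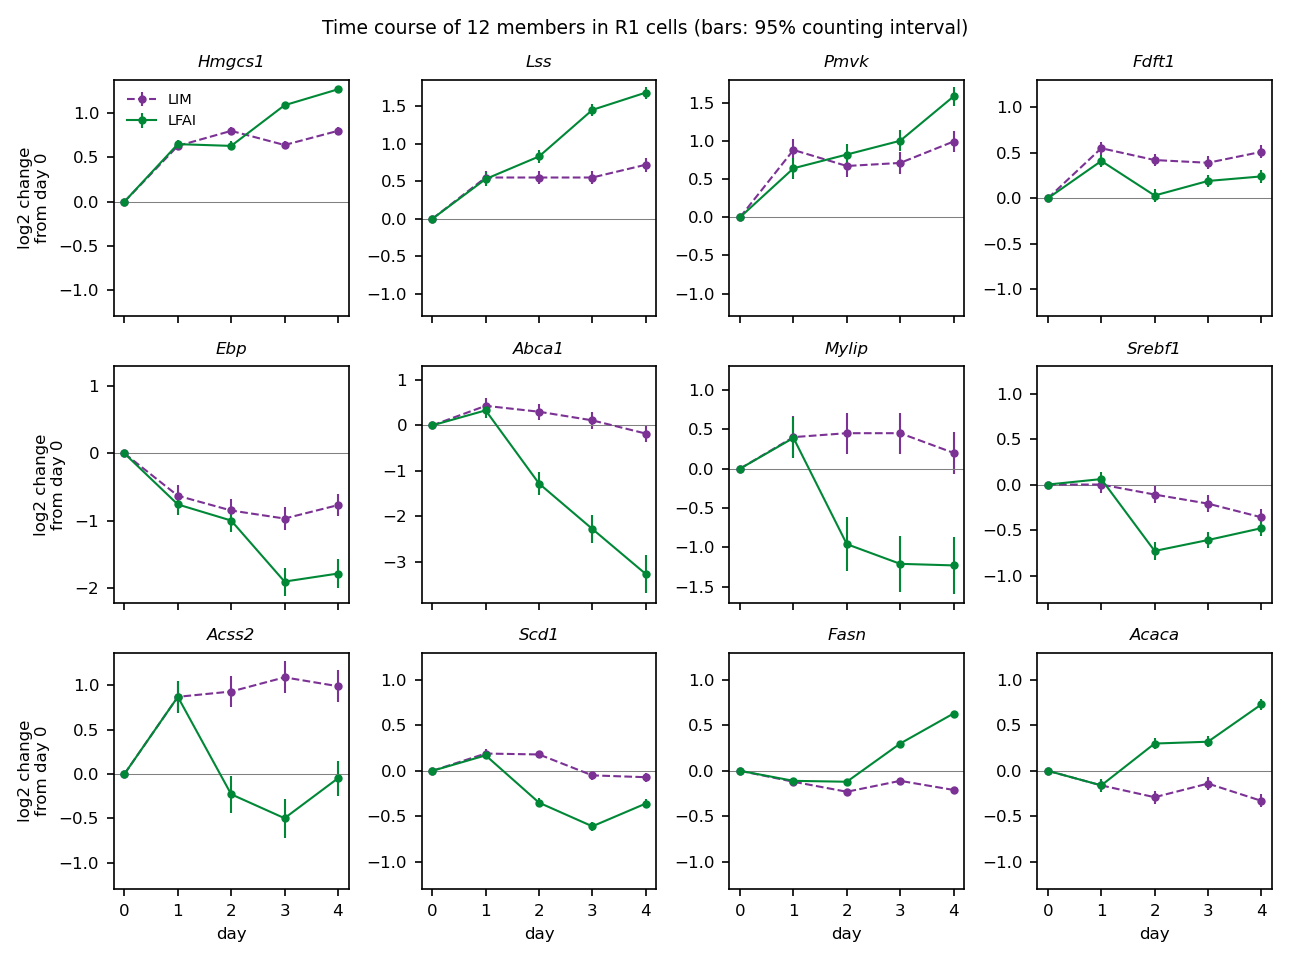
Log2 change from day 0 of 12 members by day in LIM (dashed) and LFAI (solid), 1 R1 library a point, with 95% counting intervals. Both media run together on day 1, after which Abca1, Mylip and Acss2 stand below day 0 in LFAI and above it in LIM on day 2, while Lss and Hmgcs1 climb further in LFAI by day 4.

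The exporters and Mylip stood above day 0 on day 1 of LFAI and below it from day 2. On day 1 all 5 traffic genes were above day 0 beyond counting error in LFAI, by 0.13 to 0.39 log2 units, where 21.8% of all genes were. This was not particular to LFAI: on day 1 of LIM their changes ran from 0.06 to 0.43 log2 units. Abca1 was at 34.5 CPM on day 0 and at 43.3, 14.1, 6.99 and 3.43 CPM on days 1 to 4 of LFAI, and at 46.5, 42.3, 37.3 and 30.4 CPM in LIM. Mylip was at 14.8 CPM on day 0 and at 19.5, 7.56, 6.34 and 6.21 CPM in LFAI, and was at 17.0 to 20.3 CPM in LIM. Abcg1 was at 23.9 CPM on day 0, 31.5 CPM on day 1 and 10.7 to 15.4 CPM on days 2 to 4 of LFAI. In LIM it was at 29.9, 31.4, 26.6 and 20.5 CPM on days 1 to 4. Mylip was not called in the set with both lines, where at 4 days of LFAI it was at 9.31 and 7.64 CPM against 10.3 and 12.5 CPM in L2i. Among the regulators, Srebf1 was at 164.7 CPM on day 0, at 164.8, 152.6, 142.4 and 128.3 CPM in LIM and at 171.6, 99.0, 108 and 117.6 CPM in LFAI, below day 0 on the last 3 days in both media. Srebf2 and Insig1 were higher than day 0 beyond counting error on all 4 days in both media, and Scap was lower. Srebf2 was at 372.5 CPM on day 0 and at most 429.6 CPM later. Insig1 was at 198.4 CPM on day 0, at 254.7, 300.4, 270.8 and 303.1 CPM in LIM, and at 271.2, 240.5, 304.8 and 267.2 CPM in LFAI. Stard4 went the other way from the exporters, to 196.5 CPM on day 4 of LFAI from 109.5 CPM on day 0.

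Fatty acid genes moved in both directions over the course. The median log2 change of the 9 was 0.19, 0.15, 0.16 and 0.12 in LIM and 0.11, -0.23, -0.27 and -0.04 in LFAI. In LIM 4 of 9 (Acly, Acss2, Fads1 and Fads2) were higher on all 4 days beyond counting error and 3 (Acaca, Fasn and Scd2) were lower, where 13.4% and 11.7% of all genes were. In LFAI 0 were on the same side of day 0 on all 4 days, where 7.45% of all genes were higher and 8.80% lower. Acss2 was at 28.1 CPM on day 0, at 51.5 to 59.95 CPM in LIM, and at 51.5, 24, 19.8 and 27.2 CPM on days 1 to 4 of LFAI. Fasn was at 1219 CPM on day 0, at 1039 to 1129 CPM in LIM, and at 1129, 1124, 1504 and 1884 CPM in LFAI. Acaca was at 273 CPM on day 0 and 451 CPM on day 4 of LFAI. The desaturases Scd1 and Scd2 were at their lowest on day 3 of LFAI, at 360 and 1763 CPM, from 549 and 2579 CPM on day 0.

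Directions can be set side by side between the experiments, although R1 cells are in both. The shares given here are of all genes. Those among all genes called in the set with both lines were not counted, so the members cannot be set against other called genes. All 12 members called higher in LIM in the set with both lines were above day 0 beyond counting error on day 4 of LIM in the time course, and the 1 called lower (Ebp) was below it, where 26.5% and 26.0% of all genes were. Of the 11 called higher at 4 days of LFAI, all 11 were higher on day 4, and of the 8 called lower 7 were lower, where 34.4% and 34.9% of all genes were beyond counting error in these directions. The exception was Acss2, which fell 4.13-fold in the set with both lines and differed from day 0 by -0.05 log2 units, within its counting interval of 0.20, on day 4 of the time course. Acss2 in LIM differed too: it was called in neither direction in the set with both lines and was 0.87 to 1.09 log2 units above day 0 in the time course. Lss in LIM reached 1.57 log2 units in the set with both lines, after passages in that medium, and 0.72 on day 4. At 35 h in the set with both lines the sterol median was 0.11, whereas it was 0.50 and 0.48 on days 1 and 2 of LFAI in the time course. Coating, sequencing protocol, passage and time in the medium all differ between the sets, and their part in this was not tested.

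Genes around the pathway moved in both directions. Of 11 tested genes of other sterol steps 4 rose at 4 days of LFAI against L2i, among them Soat1 (log2 2.52), which esterifies cholesterol for storage, and Vldlr (3.43), a lipoprotein receptor, and Npc2 (-1.20), the lysosomal partner of Npc1, fell. Erlin1, of the SREBP machinery, fell as well (log2 -1.51). Of 6 tested genes of the LXR list 2 rose, of which Arl4c had the larger change (5.66), although it is a known LXR target like Abca1, which fell. Of 26 tested genes of other fatty acid steps 7 rose, among them Acsl5 (2.84) and Elovl1 (1.58), and 9 fell, among them Acsl1 (-1.95). These counts stand beside the 21.5% and 23.3% of all tested genes that rose and fell in that comparison, with edgeR adjusted p values of 0.0025 or less for the genes named. In LIM in the set with both lines, Soat1, Vldlr (2.31) and Arl4c (3.22) were called higher than L2i and Npc2 (-1.14) lower as well. The Vldlr call was lost without the L2i library of CGR8 or either LIM library. In the time course Vldlr and Npc2 went the same way on days 1 to 4 of LIM, and Soat1 on days 2 to 4. Arl4c did not, at -0.23, -0.19, -0.58 and -0.26 log2 units from day 0.

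Some members share exon sequence with another gene, and the strand setting of the counting is not given in the sources used here. Fdps overlaps Gm43738 and Tm7sf2 overlaps Vps51 on the same strand. Fdft1, Lss, Cyp51, Srebf1, Scap, Npc1, Acss2 and Elovl6 overlap exons of genes on the opposite strand. Counts of these 10 may miss or include reads of the partner. Acat2, Idi1 and the Scd genes have near copies (Acat3, Idi2, Scd3 and Scd4), and reads that align to several places were left out of the counts, so their levels may be understated.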

How the data were processed

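The data were deposited counts of reads per gene for 17 libraries, made by the authors with HISAT2 2.0.4 and HTSeq 0.6.1 on GRCm38, per the submitters' processing notes, which also name DESeq2 1.10.1. The library kit keeps strand, per the labels' protocols. The strand setting of the counting and the annotation release are not given in the sources used here. Lines of the count files that name no gene held 47.7% to 51.9% of each total and were left out. Of the gene identifiers 99.1% were in GENCODE M21. No pair of libraries was identical.

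The 37 members, the other lists and the markers were chosen with earlier results of these data known. Every member could be named, and of each other list up to 4 genes with the smallest p in a comparison.

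Counts of the 8 libraries of both lines were fitted with edgeR 4.0.16 (R 4.3.3, TMM scaling, filterByExpr, quasi-likelihood test, 4 residual degrees of freedom) on 15525 genes, without a block. Calls used a Benjamini-Hochberg adjusted p under 0.05 over all of them. Statements that the libraries of a group lay above or below those of another describe the same values and are no further test. The share of all genes with such a separation was not counted. Replicate numbers mark the cell line, so they pair the libraries by design, and the deviations of a line from its group means correlated by 0.04 to 0.40 over 6 pairs of groups. The fit with the line as a block had 3 residual degrees of freedom. Alternatives were DESeq2 1.42.0, its size factors, no filter, only the 4 libraries compared, adding the time course, and leaving out each library. The time course (1 library a point) was described as log2 CPM with TMM scaling and a prior count of 2, over 15682 genes with 1 CPM in a library, with 95% intervals for counting error only. The fit was tested on simulated data.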

Additional observations from a re-analysis of the deposited data

Results flagged for a closer look

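For 15 pairs of a member and a comparison, R1 and CGR8 moved in opposite directions, each by more than its counting error. With 1 library of each line in a group, the difference between the lines was not tested. The values that follow are log2 changes, R1 first. In LIM against L2i they were 0.25 and -1.06 for Abca1, -0.42 and 0.24 for Acss2, and -0.35 and 0.14 for Fads1. In LFAI at 35 h against L2i they were 0.18 and -0.26 for Msmo1, -0.15 and 0.08 for Srebf1, and -0.34 and 0.22 for Acss2. In LFAI at 4 days against L2i Fasn changed by 0.32 and -0.58. At 4 days against LIM the values were 0.17 and -0.13 for Acat2, 0.30 and -0.05 for Srebf2, 0.49 and -0.13 for Acaca, 0.09 and -0.74 for Fasn, and 0.28 and -0.53 for Fads2. At 35 h against LIM they were -0.19 and 1.19 for Abca1 and 0.23 and -0.26 for Fads1. From 35 h to 4 days Fasn changed by 0.53 and -0.27. Fasn was thus split between the lines in each of the 3 comparisons with the 4 day libraries.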

How the results depend on the processing

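With the cell line as a replicate block, 210 of 222 member calls stayed on their side of the threshold, 11 were gained and 1 (Lss at 35 h against L2i) was lost. No direction of a called member turned under any alternative run. Members called lower in LIM against L2i numbered 2 instead of 1 with no filter, with DESeq2 and with the block. At 35 h against L2i, members called higher numbered 2 with DESeq2 and members called lower 4 with no filter. At 4 days against L2i, 17 members were called higher with the time course libraries added, instead of 11. At 35 h against LIM, genes called higher numbered 746 with no filter, 632 with DESeq2, 494 with the block and 188 with only the 4 libraries compared, instead of 298. Genes called lower there numbered 1459, 1070 and 425 with no filter, DESeq2 and 4 libraries, instead of 692, and members called lower 13, 12, 10 (block) and 3, instead of 6. In the time course 1 member was 2-fold lower on day 3 of LIM with total counts alone, 1 was 2-fold higher on day 4 of LIM with no filter, and 1 was 2-fold lower on day 2 of LFAI with DESeq2 size factors or no filter, instead of 0, 0 and 2. The cause of these shifts was not tested.

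Leaving out 1 library at a time leaves an arm with 1 sample, which is assumed to vary like the other groups. The counts then ran as follows. In LIM against L2i they were 934 to 1690 genes higher, 505 to 1131 lower, 3 to 10 members higher and 1 to 2 lower. At 35 h against L2i they were 507 to 1132 and 369 to 1040 genes, and 0 to 1 and 0 to 2 members. At 4 days against L2i they were 2395 to 3332 and 2495 to 3640 genes, and 4 to 10 and 5 to 9 members. At 4 days against LIM they were 735 to 1810 and 1358 to 2650 genes, and 0 and 5 to 7 members. At 35 h against LIM they were 64 to 319 and 146 to 693 genes, and 0 to 1 and 1 to 5 members. From 35 h to 4 days they were 1440 to 2668 and 1879 to 3090 genes, and 4 to 12 and 4 to 6 members.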

Other observations

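Genes that burn fatty acids were on a list of 13, all tested. At 4 days of LFAI against L2i 7 fell and 2 rose, with a median log2 difference of -0.45, where 23.3% of all tested genes fell and 21.5% rose. Of the carnitine steps that bring fatty acids into mitochondria, Cpt2 rose (log2 0.82, edgeR adjusted p = 0.012; the call was lost without the L2i or the 4 day library of CGR8). The others fell: Cpt1a by 3.79 and Slc25a20 by 3.58 on the log2 scale, with edgeR adjusted p = 0.0001 and 2.1e-05. Acadm, the medium-chain dehydrogenase, fell by 1.92 and Acadl, the long-chain one, rose (log2 2.57), with edgeR adjusted p = 3.7e-05 and 2.2e-05. In LIM in the set with both lines 4 of the 13 fell and 0 rose by edgeR, where 7.81% and 11.3% of all tested genes did. Among them Cpt1a was at -1.98 and Slc25a20 at -1.36. In the time course of R1 Slc25a20 instead stood above day 0 in LIM, by 0.54, 0.49, 0.56 and 0.44 log2 units on days 1 to 4. Cpt1a was below it there, at -0.66, -0.74, -1.06 and -1.2. The median of the 13 was 0.14, 0.13, 0.2 and 0.23. The cause of this difference between the sets was not tested. At 35 h Slc25a20 fell (-1.77) and Acadl rose (0.98) by edgeR, 1 of 13 in each direction, where 7.16% and 7.35% of all tested genes fell and rose. DESeq2 and edgeR with the cell line as a block also called Cpt1a (-1.02) and Acaa2 (-0.78) lower there, and the block Acadm as well.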
